A study of Mus musculus with 18 samples.

Results

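The comparison described here sets splenic pan B cells of C57BL/6 mice that received mBaffR-mFc and then BAFF 60mer against the same kind of cells that received a control antibody and then BAFF 60mer. It rests on 6 of the 18 RNA-seq libraries of the study, 3 per group, and on 11646 genes of the 35275 in the deposited expression table, those whose FPKM averaged 1 or more across the 18 libraries. In the study, B cells spent 1 h with 1000 ng/ml of either reagent, followed by 4 h with 100 ng/ml of BAFF 3mer, with BAFF 60mer, or without BAFF. The groups are called Ab, Ab_3mer and Ab_60mer after the control antibody and BRFc, BRFc_3mer and BRFc_60mer after mBaffR-mFc, each of 3 libraries. All 6 groups share the strain, the tissue and the cell isolation, and the series text describes mBaffR-mFc as covering the part of BAFF that binds the receptor BR3. The question is which B cell transcripts differ, under the oligomeric form of BAFF, when that part is covered. The labels name neither the age of the animals nor whether libraries of a group came from separate animals, so each p-value speaks to the scatter among the libraries sequenced, which may be technical.

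BAFF is a cytokine of the TNF family that keeps mature B cells alive. It acts through BR3 (Tnfrsf13c) and TACI (Tnfrsf13b), both carried by splenic B cells, and through BCMA (Tnfrsf17), which is mainly a receptor of plasma cells. Engaged BR3 removes TRAF3 from the kinase NIK (Map3k14), after which p100 (Nfkb2) is processed and RelB enters the nucleus, the noncanonical arm of NF-kB. TACI responds to the oligomeric form of BAFF and couples to the canonical arm.

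Over the 18 libraries, totals recovered from the steps of the FPKM values ran from 12.2 to 25.4 M fragments. Ab_60mer had a mean of 14.9 ± 2.59 M fragments and BRFc_60mer of 17.8 ± 3.17 M (SD, n = 3), with ranges that overlapped. The B cell marker Cd79a, a signalling chain of the B cell receptor, read 772, 813 and 812 FPKM in Ab_60mer and 789, 809 and 800 FPKM in BRFc_60mer. Ms4a1, which encodes CD20, read 176, 185 and 183 FPKM in Ab_60mer and 168, 177 and 178 FPKM in BRFc_60mer, so both markers overlapped between the groups. The 8 listed B cell markers summed to 3600 to 3810 FPKM in Ab_60mer and 3600 to 3920 FPKM in BRFc_60mer. Of these 8, 1 was lower in BRFc_60mer at an unadjusted limma p under 0.05, and 0 passed after adjustment. Transcripts of connective tissue, 6 genes including Col1a1 and Col3a1, summed to 8.14 to 10.6 FPKM in Ab_60mer and 9.79 to 10.7 FPKM in BRFc_60mer. They summed to at most 0.0569 FPKM in Ab and 0.0541 FPKM in BRFc, so they are present on both sides of the main comparison but differ between the libraries with BAFF 60mer and those without BAFF.

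After BAFF 60mer, B cells that had received mBaffR-mFc differed from control antibody cells in 3 genes, all of them higher: B3gnt7, a glycosyltransferase that adds N-acetylglucosamine to growing sugar chains, Pkib, an inhibitor of the cAMP-dependent protein kinase, and Spp1, which encodes the secreted glycoprotein osteopontin. The 3 calls are 0.0258% of the genes tested (limma on log2(FPKM + 1), Benjamini-Hochberg adjusted p under 0.05). Among lower genes 0 passed. At an unadjusted p under 0.05 there were 540 genes (4.64%), 293 higher (2.52%) and 247 lower (2.12%), and voom on the recovered fragments called B3gnt7 and Pkib only. A fit of just the 6 libraries, with fewer degrees of freedom, called 0 genes. Array quality weights called 8, of which 2 were lower (Plxnd1 and Gm17622), and 1 lower gene was called without the expression filter (Hcrtr1) and 1 with the library total as a term (Gm17622). The spread of all differences was narrow. The 5% and 95% quantiles of the log2 difference were -0.19 and 0.16, and 65 genes differed by more than 1.5-fold in FPKM + 1, of which 14 had a mean of at least 5 FPKM. For low genes this fold is smaller than the fold in FPKM itself. In 980 genes (8.41%) the libraries of both groups did not overlap.

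**Figure D1:**
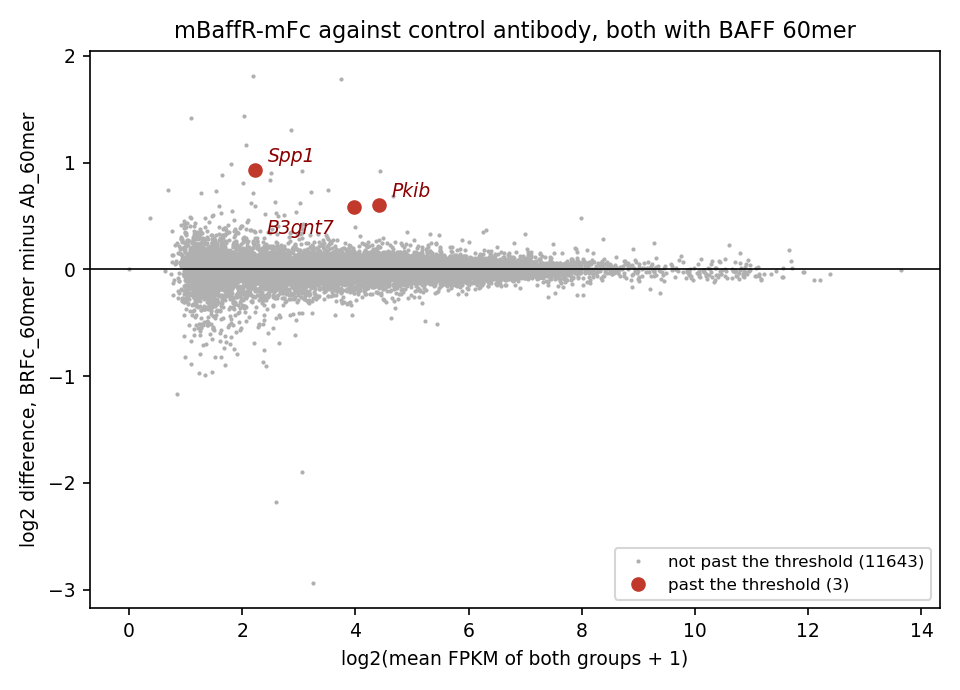
Log2 difference in log2(FPKM + 1) between BRFc_60mer and Ab_60mer (vertical axis, 3 libraries each) against the log2 of the mean FPKM of both groups plus 1 (horizontal axis), with 1 point for each of 11646 genes. The 3 genes past the threshold, B3gnt7, Pkib and Spp1, are the larger points and all lie above 0, at 0.59, 0.60 and 0.93, while several genes with larger differences did not pass.

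The regions around the starts of these genes are shown so that the base composition and motifs of the only genes called can be read beside their values. All 3 genes matched the RefSeq table of GRCm38.p6, which gives 250 bases before to 50 bases after each start. Capitals mark a motif found by searching both strands for an NF-kB site, an AP-1 site (TGANTCA), a CRE-like site (TGACG), an octamer (ATGCAAAT), an E-box (CACGTG) and a PU.1 site (GAGGAAGT); none of the marked motifs overlaps another. The B3gnt7 window, chr1:86302971-86303270 on the plus strand, holds an E-box 34 bases before the RefSeq start, a motif present in 7.15% of the 32851 promoters searched. The GENCODE M21 model of B3gnt7, used here for its position, starts further upstream, so this whole window lies inside that gene model.
B3gnt7: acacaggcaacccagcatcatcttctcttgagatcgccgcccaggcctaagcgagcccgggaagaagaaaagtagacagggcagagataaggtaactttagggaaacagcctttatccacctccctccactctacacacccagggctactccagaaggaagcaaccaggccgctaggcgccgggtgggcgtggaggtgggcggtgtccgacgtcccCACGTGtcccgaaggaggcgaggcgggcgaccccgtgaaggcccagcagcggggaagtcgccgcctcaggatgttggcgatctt
For Pkib the table gives a pair of starts, and neither window holds any of the 6 motifs. The first, chr10:57631731-57632030 on the plus strand, reads as follows.
Pkib: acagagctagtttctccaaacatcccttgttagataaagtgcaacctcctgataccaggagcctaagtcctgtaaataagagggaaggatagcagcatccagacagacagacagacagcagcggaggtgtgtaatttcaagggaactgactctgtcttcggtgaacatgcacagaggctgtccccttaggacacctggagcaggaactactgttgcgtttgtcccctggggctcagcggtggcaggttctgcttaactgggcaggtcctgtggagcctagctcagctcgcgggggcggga
The window at the first start of Spp1, chr5:104434861-104435160 on the plus strand, holds a PU.1 site 113 bases before the start, a motif found in 3.2% of promoters.
Spp1: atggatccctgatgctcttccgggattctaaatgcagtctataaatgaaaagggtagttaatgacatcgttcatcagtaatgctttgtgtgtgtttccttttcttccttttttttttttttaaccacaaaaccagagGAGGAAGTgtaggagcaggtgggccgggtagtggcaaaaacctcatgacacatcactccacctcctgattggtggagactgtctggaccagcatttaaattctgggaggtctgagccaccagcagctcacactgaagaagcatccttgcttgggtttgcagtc
The window at the second start of Spp1 holds an octamer, found in 1.74% of promoters. The NF-kB motif was in 4.51% of all promoters, the AP-1 motif in 7.81% and the CRE-like site in 20.8%, and in no window of these 3 genes. These matches describe the letters only.

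B3gnt7 (GENCODE M21, GRCm38, chr1:86302832-86307305, plus strand) read 10.8, 12 and 11.8 FPKM in the Ab_60mer libraries and 17.9, 18.5 and 17 FPKM in the BRFc_60mer libraries. The groups did not overlap, and the lowest BRFc_60mer library was well above the highest Ab_60mer library. Means were 11.5 ± 0.639 and 17.8 ± 0.767 FPKM (SD, n = 3), a ratio of 1.54. On the log2(FPKM + 1) scale, which understates the change of low genes, the difference was 0.59 ± 0.0627 (SE; 95% interval 0.45 to 0.72; limma adjusted p = 0.000573). The Ab_60mer libraries were the ones that stood apart from the other groups. Means were 16.5 ± 0.747 FPKM in Ab, 16.4 ± 0.155 in BRFc, 15.6 ± 1.29 in Ab_3mer and 15.6 ± 0.864 in BRFc_3mer (SD, n = 3). Against Ab, B3gnt7 fell by 0.48 on the log2 scale in Ab_60mer (SE 0.0627; limma adjusted p = 0.000179). Against BRFc it differed by 0.11 in BRFc_60mer (adjusted p = 0.361). The difference between these responses, tested as an interaction, was 0.60 ± 0.0886 (limma adjusted p = 0.0468), and B3gnt7 was the only gene called in it, 0.00859% of those tested, beside 640 (5.50%) at an unadjusted p under 0.05. This call was lost whenever any of the 12 libraries in it was left out (adjusted p from 0.0561 to 0.246). In bulk RNA, fewer cells of a type that express a gene and less RNA of it per cell cannot be told apart, here and for every gene below.

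Pkib (chr10:57631981-57741112, plus strand) read 18, 14.2 and 15.5 FPKM in Ab_60mer and 25.3, 25.7 and 22.7 FPKM in BRFc_60mer. Each BRFc_60mer library was above each Ab_60mer library. The means of 15.9 ± 1.92 and 24.6 ± 1.63 FPKM (SD, n = 3) gave a ratio of 1.54 and a log2 difference of 0.60 ± 0.081 (SE; 95% interval 0.43 to 0.77; limma adjusted p = 0.00705). The call was lost without Ab_60mer library 2 (adjusted p = 0.0529) or 3 (0.0548) and without BRFc_60mer library 2 (0.0893). Here BRFc_60mer was the group that stood apart, since the other means were 14.4 ± 0.217 FPKM in Ab, 16.9 ± 1.14 in BRFc, 16 ± 1.49 in Ab_3mer and 17.8 ± 0.988 in BRFc_3mer. Pkib rose by 0.51 in BRFc_60mer against BRFc (limma adjusted p = 0.0014). In Ab_60mer against Ab the difference was 0.13 (adjusted p = 0.297). The interaction itself, 0.38, did not pass (limma adjusted p = 0.763), so the responses were not shown to differ. Without BAFF the BRFc libraries were higher than the Ab libraries by 0.22 on the log2 scale, which did not pass either (adjusted p = 0.829).

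Spp1 (chr5:104435118-104441050, plus strand) read 2, 2.37 and 2.27 FPKM in Ab_60mer and 4.45, 5.40 and 5.57 FPKM in BRFc_60mer. The lowest BRFc_60mer library was again above the highest Ab_60mer library. Means of 2.21 ± 0.19 and 5.14 ± 0.604 FPKM (SD, n = 3) gave a ratio of 2.32 and a log2 difference of 0.93 ± 0.139 (SE; 95% interval 0.64 to 1.22; limma adjusted p = 0.0163). This is a low level, and the call depended on the setting: it was lost without any single Ab_60mer library or without BRFc_60mer library 2 or 3 (adjusted p from 0.0529 to 0.164), without the expression filter (0.0885), in the fit of just the 6 libraries (0.154), with the library total as a term (0.0605) and with voom (0.0526). Elsewhere Spp1 was 2.09 ± 0.243 FPKM in Ab, 1.78 ± 0.309 in BRFc and 1.72 ± 0.274 in BRFc_3mer. The Ab_3mer libraries read 4.04, 3.32 and 2.30 FPKM, and the higher values belong to the libraries of that group with connective tissue transcripts (10 and 12.9 FPKM in sum, against 0.0756 in the third). All 6 libraries of the main comparison carry such transcripts at 8.14 to 10.7 FPKM. Macrophage and monocyte markers, 13 genes, summed to 159 to 172 FPKM in Ab_60mer and 165 to 176 in BRFc_60mer. Of the 7 tested, 2 were higher in BRFc_60mer at an unadjusted limma p under 0.05, beside 2.52% of all genes. On that list 0 were lower at this level, and 0 passed after adjustment. The sums and tests of connective tissue and of macrophage markers are given beside Spp1 as values. The part of either cell type in the Spp1 values was not tested. Against BRFc, Spp1 rose by 1.14 in BRFc_60mer (limma adjusted p = 0.000139). Against Ab it differed by 0.06 in Ab_60mer (adjusted p = 0.82), and the interaction of 1.09 did not pass (0.234).

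**Figure D2:**
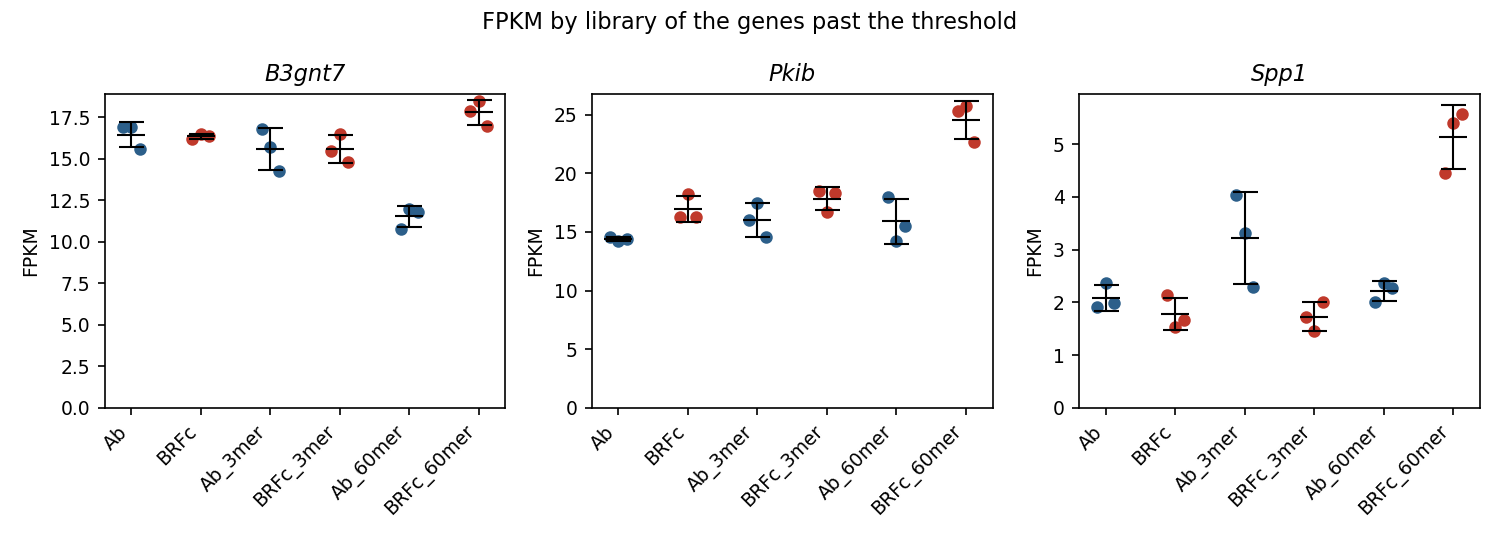
FPKM (vertical axes, from 0) of B3gnt7, Pkib and Spp1 in each of the 18 libraries by group (horizontal axes), with the group mean and SD of 3 libraries as bars, blue after the control antibody and red after mBaffR-mFc. B3gnt7 is lowest in Ab_60mer (11.5 FPKM on average), whereas Pkib and Spp1 are highest in BRFc_60mer (24.6 and 5.14 FPKM).

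Some genes with small p-values lay outside the threshold and are given as values; predicted genes with provisional names (Gm17622, Gm14086) are left aside in this order. Vim, the intermediate filament vimentin, read 35.0, 33.6 and 34.9 FPKM in Ab_60mer and 43.1, 44.8 and 43.1 FPKM in BRFc_60mer, without overlap. Its log2 difference was 0.33 ± 0.0608 (SE; limma adjusted p = 0.115). Connective tissue cells also express Vim, and the summed connective tissue markers are those given above. Vim fell by 0.38 in Ab_60mer against Ab (adjusted p = 0.000785) and differed by -0.12 in BRFc_60mer against BRFc (0.313). Pxk, a kinase-like protein with a PX domain, read 71.7, 71.8 and 70.5 FPKM in Ab_60mer and 78.5, 85.7 and 79.1 FPKM in BRFc_60mer, a log2 difference of 0.18 ± 0.0369 (limma adjusted p = 0.203). Pxk was thus higher in each BRFc_60mer library, by a small amount.

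On the lower side, leaving aside provisional names such as Gm17622 and Gm11722 (limma adjusted p = 0.115 and 0.237), the smallest p-value belonged to Plxnd1, a semaphorin receptor on the list of marginal zone genes, with 14.4, 15 and 15.6 FPKM in Ab_60mer and 12.6, 10.4 and 12.4 FPKM in BRFc_60mer. The log2 difference was -0.32 ± 0.0642 (limma adjusted p = 0.203), and with array quality weights Plxnd1 passed (0.0293). Plxnd1 rose by 0.35 in Ab_60mer against Ab (adjusted p = 0.00258) and differed by 0.01 in BRFc_60mer against BRFc (0.939). Ccnd2, the cyclin D2 of the G1 phase in B cells, followed the same order, with 23.5, 23 and 24.3 FPKM in Ab_60mer and 18.4, 20.1 and 19.4 FPKM in BRFc_60mer. The groups did not overlap, and the log2 difference was -0.28 ± 0.0661 (limma adjusted p = 0.265). Ccnd2 rose by 0.62 in Ab_60mer against Ab (limma adjusted p = 3e-05), whereas its 0.21 in BRFc_60mer against BRFc did not pass (0.0818). The interaction of -0.41 did not pass either (limma adjusted p = 0.511). Ly6d, a GPI-anchored surface marker of B lineage cells, had 295, 266 and 285 FPKM in Ab_60mer against 227, 232 and 257 FPKM in BRFc_60mer. Its log2 difference was -0.24 ± 0.0569 (limma adjusted p = 0.265). Arl2, a small GTPase, had log2 differences of -0.30, and Thap7, a zinc finger protein, of -0.21 (limma adjusted p = 0.265 for both), each with no overlap between the libraries.

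A few genes were picked out after their values were seen, because a response to BAFF 60mer was called under at least 1 of the reagents or because an alternative called them. Il4i1, a secreted oxidase of aromatic amino acids, read 186, 212 and 234 FPKM in Ab_60mer and 252, 300 and 333 FPKM in BRFc_60mer. The libraries did not overlap, and the log2 difference was 0.48 ± 0.0979 (limma adjusted p = 0.203). Il4i1 rose in both settings with BAFF 60mer, by 0.39 in Ab_60mer against Ab (adjusted p = 0.0152) and by 1.03 in BRFc_60mer against BRFc (1.88e-05). The first rise was lost without Ab library 2 (0.062) or Ab_60mer library 3 (0.0549), and the interaction of 0.64 did not pass (limma adjusted p = 0.511). Gadd45g, a stress-inducible regulator of the cell cycle, read 6.34, 7.46 and 8.62 FPKM in Ab_60mer and 9.39, 15.1 and 15.9 FPKM in BRFc_60mer, a log2 difference of 0.75 ± 0.16 (limma adjusted p = 0.237). BRFc_60mer library 1 is the one closest to the Ab_60mer values for both Il4i1 and Gadd45g, and without it both passed (limma adjusted p = 0.0257 and 0.0143). Casp6, an executioner caspase, read 17.9, 19.0 and 17.9 FPKM in Ab_60mer and 23.6, 21.7 and 21.5 FPKM in BRFc_60mer (log2 difference 0.27 ± 0.0594, limma adjusted p = 0.237). It fell by 0.43 in Ab_60mer against Ab (adjusted p = 0.000322) and differed by -0.00 in BRFc_60mer against BRFc (0.995). Its interaction of 0.42 did not pass (limma adjusted p = 0.407).

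For the receptors and the signalling chain of BAFF, the libraries after mBaffR-mFc and after the control antibody were not told apart by the test under BAFF 60mer. Of a panel of 25 genes, 24 were tested and 0 passed in either direction with limma, while voom also called 0 of them. Tnfrsf13c, the BR3 receptor, read 99.4, 100.0 and 93.8 FPKM in Ab_60mer and 91.8, 99.6 and 93.0 FPKM in BRFc_60mer, with overlapping groups. Its log2 difference was -0.05 (95% interval -0.13 to 0.04). Tnfrsf13b, the TACI receptor, read 124, 126 and 127 FPKM against 127, 131 and 128 FPKM, a log2 difference of 0.04 (95% interval -0.05 to 0.12). Each BAFF receptor thus differed by at most 0.13 on the log2 scale at the bounds of its interval. Tnfrsf17, the BCMA receptor, lay between 0 and 0.201 FPKM in the 6 libraries and was not tested.

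Within the noncanonical arm of NF-kB, Nfkb2, which encodes p100, read 141, 146 and 168 FPKM in Ab_60mer and 148, 149 and 174 FPKM in BRFc_60mer. The groups overlapped, with a log2 difference of 0.04 (95% interval -0.13 to 0.22). Nfkb2 rose against its own libraries without BAFF under both reagents, by 0.28 in Ab_60mer (limma adjusted p = 0.0336) and by 0.39 in BRFc_60mer (0.00962). The first of these was lost without library 1 or 2 of Ab or library 2 or 3 of Ab_60mer (0.0554 to 0.118) and without the expression filter (0.0752). Birc3, an inhibitor of apoptosis protein that works with TRAF2 and TRAF3 on NIK, read 417, 419 and 419 FPKM in Ab_60mer and 428, 423 and 410 FPKM in BRFc_60mer. This was the tightest of the NF-kB targets, with a log2 difference of 0.01 (95% interval -0.07 to 0.08) beside rises of 0.35 (limma adjusted p = 2.81e-05) and 0.33 (6.47e-05) over the libraries without BAFF. For reading these responses, Ab_60mer against Ab called 14% of genes (5.04% higher and 8.94% lower) and BRFc_60mer against BRFc 4.83% (1.46% and 3.37%). With median-of-ratios rescaling the split of higher and lower calls moved from 587 and 1041 to 763 and 880 in the former and from 170 and 393 to 226 and 289 in the latter. The responses share Ab_60mer and BRFc_60mer with the main comparison, and they lie across the difference in connective tissue transcripts. Relb and Traf3 differed by 0.03 and -0.03, and Map3k14, the kinase NIK, by -0.00 with an interval of -0.13 to 0.12. Traf3 was called in Ab_60mer against Ab (limma adjusted p = 0.00334) but not in BRFc_60mer against BRFc. A call under only 1 reagent does not show that the responses differ. All 11 genes listed for the noncanonical pathway were tested. Their differences ran from -0.13 (Tank) to 0.04 (Nfkb2), with a median of -0.001 against -0.004 over all genes, and no 95% interval among them reached beyond 0.36 in size.

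The canonical arm also held no gene past the threshold. Nfkbie, the inhibitor IkB epsilon and itself an NF-kB target, read 103, 99.3 and 104 FPKM in Ab_60mer and 93.3, 98.3 and 99.0 FPKM in BRFc_60mer. The libraries after mBaffR-mFc were slightly lower without overlap, and the log2 difference was -0.07 (95% interval -0.16 to 0.01; limma adjusted p = 0.993). Traf1, an adaptor induced by NF-kB, differed by -0.11 (95% interval -0.22 to 0.00). Of 17 canonical subunits and feedback genes, all tested, 0 passed, and their differences ran from -0.11 (Traf1) to 0.09 (Tnip2) with a median of -0.016. Of 28 tested NF-kB target genes out of 30 listed, 0 passed, and the range was -0.27 (Ccl3) to 0.43 (Ier3). Ier3, an immediate early gene, was low, at 0.506, 0.644 and 0.864 FPKM in Ab_60mer and 1.05, 1.45 and 1.24 FPKM in BRFc_60mer (limma adjusted p = 0.833).

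Genes of survival that rose with BAFF 60mer were likewise not called between the reagents. Bcl2l1, which encodes the anti-apoptotic Bcl-xL, read 28.4, 32.4 and 29.8 FPKM in Ab_60mer and 26.5, 26.5 and 26.1 FPKM in BRFc_60mer. Its libraries did not overlap, but the difference of -0.19 (95% interval -0.35 to -0.03) had a limma adjusted p of 0.988. Pim2, a survival kinase, differed by -0.02 (95% interval -0.20 to 0.17). Bcl2l1 rose by 0.53 in Ab_60mer against Ab (limma adjusted p = 0.000348) and by 0.33 in BRFc_60mer against BRFc (0.0161). The latter was lost without BRFc library 3 (0.0962) or BRFc_60mer library 1 (0.0532) or 2 (0.0563). Pim2 rose by 0.44 and 0.49 in the same pair of comparisons (0.00391 and 0.00311). Mcl1 was at 314 to 343 FPKM in all 6 libraries and differed by 0.01. The 13 anti-apoptotic genes and Pim kinases had a median difference of -0.032 and the 15 tested pro-apoptotic genes of 0.002, and 0 of either passed. Bcl2a1b, which has near-identical copies that may share reads, had the widest interval of the former (-0.40 to 0.29), and Bbc3, which encodes PUMA, of the latter (-0.30 to 0.97).

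Of the surface and effector genes in the panel, Kynu, the kynureninase of tryptophan breakdown, rose most with BAFF 60mer, by 0.94 in Ab_60mer against Ab (limma adjusted p = 9.8e-09) and by 0.81 in BRFc_60mer against BRFc (9.91e-08). Its libraries read 46.8, 46.8 and 46.7 FPKM in Ab_60mer and 44.4, 46.6 and 43.2 FPKM in BRFc_60mer, a log2 difference of -0.06 (95% interval -0.17 to 0.04). The BRFc_60mer libraries lay just below, by far less than either rise. Il2ra, the interleukin-2 receptor alpha chain, read 37.4, 37.9 and 34.8 FPKM against 31.3, 32.9 and 31.5 FPKM, without overlap. Its difference of -0.20 (95% interval -0.32 to -0.07) did not pass (limma adjusted p = 0.686). Il2ra was called in Ab_60mer against Ab (limma adjusted p = 0.000413) but not in BRFc_60mer against BRFc. Cd44, an adhesion receptor, differed by -0.06 and Cd40, a costimulatory receptor, by -0.13. Fcer2a (CD23) and Cr2 (CD21), surface proteins long used as readouts of BAFF signalling, differed by 0.10 and 0.13 (limma adjusted p = 0.993 and 0.85). Both had risen against no BAFF under either reagent, Fcer2a by 0.35 and 0.51 (limma adjusted p = 5.26e-05 and 1.92e-06) and Cr2 by 0.21 and 0.29 (0.00636 and 0.00119).

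Of the panel genes that BAFF 60mer lowered under both reagents, 0 passed between the reagents. S1pr1, the receptor through which lymphocytes leave the spleen, read 79.0, 81.4 and 76.6 FPKM in Ab_60mer and 83.7, 82.7 and 81.8 FPKM in BRFc_60mer, with no overlap but a difference of only 0.07 (95% interval -0.01 to 0.14). It fell by 0.57 in Ab_60mer against Ab (limma adjusted p = 5.79e-08) and by 0.51 in BRFc_60mer against BRFc (3.32e-07). Klf2, the transcription factor that drives S1pr1, differed by 0.12 (95% interval -0.01 to 0.25), after falls of 0.52 and 0.40 that both passed (limma adjusted p = 7.63e-05 and 0.00119). Sdc1, syndecan-1, differed by 0.14 (95% interval -0.02 to 0.31), after falls of 0.87 and 0.72 (limma adjusted p = 8.64e-06 and 6.47e-05). For each of the 24 tested panel genes the interaction between reagent and BAFF 60mer had a limma adjusted p of at least 0.511.

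**Figure D3:**
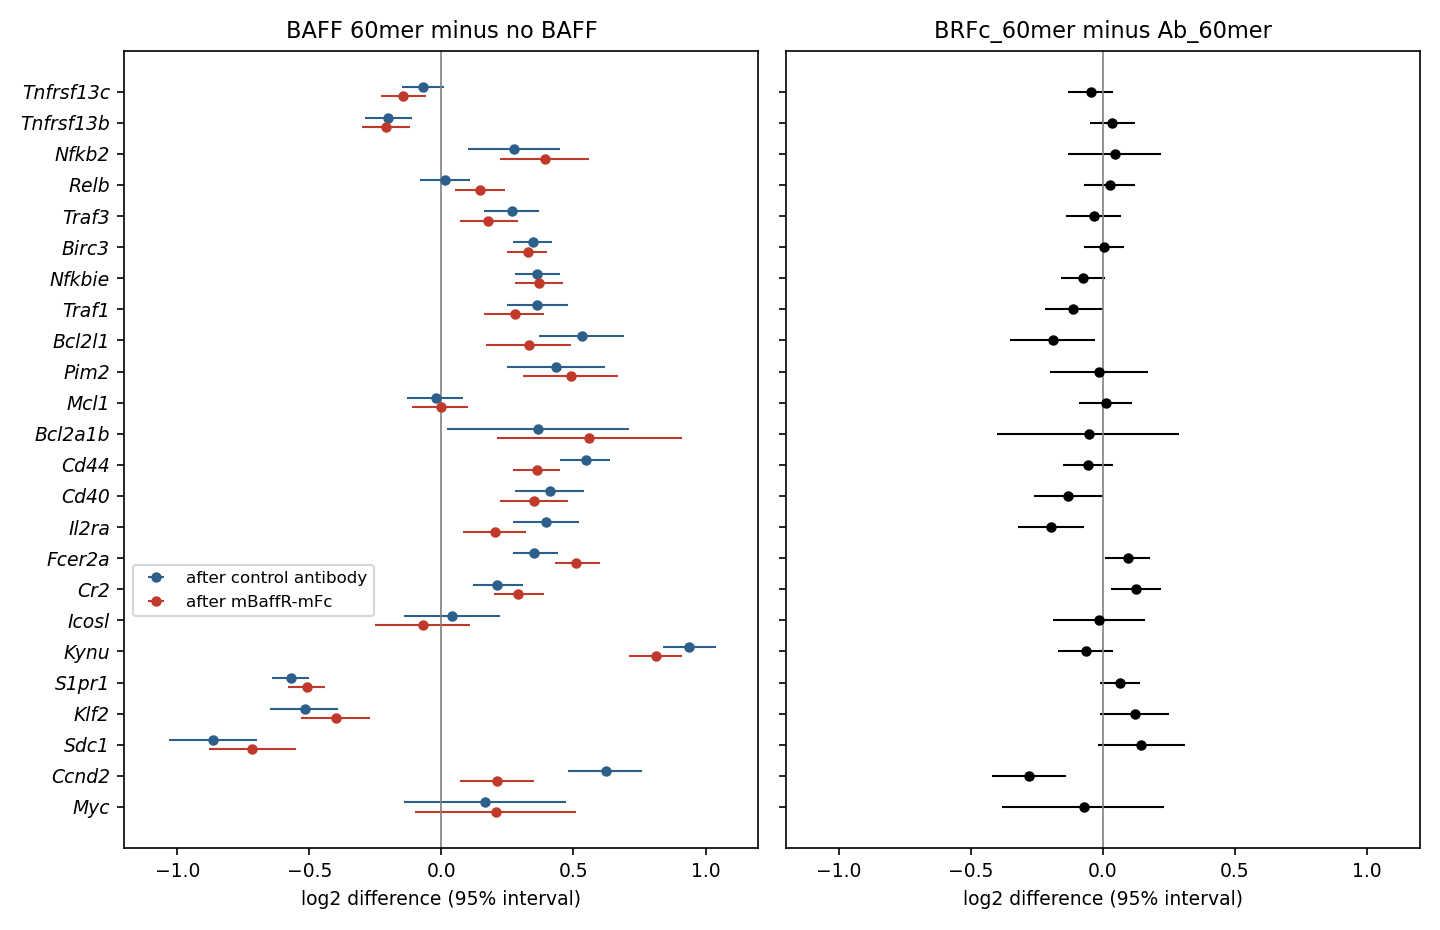
Log2 differences on log2(FPKM + 1) with 95% limma intervals (horizontal axes) for the 24 tested panel genes, BAFF 60mer against no BAFF after each reagent on the left and BRFc_60mer against Ab_60mer on the right, 3 libraries per group. The responses on the left reach 0.94 (Kynu) and -0.87 (Sdc1), while the differences on the right stay between -0.28 (Ccnd2) and 0.14 (Sdc1).

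Beyond the panel, 35 lists of B cell pathways and functions held 576 distinct genes, of which 531 were tested and 0 passed in either direction with limma. At an unadjusted p under 0.05 there were 31 of them, beside the 4.64% of all genes. List medians ran from -0.091 to 0.079 against -0.004 over all genes. The lowest belonged to B cell activation and costimulation (22 of 24 tested), whose members ran from -0.26 (Nr4a2) to 0.19 (Cd83). The highest belonged to the S1P receptors and egress genes (12 of 13 tested), from -0.10 (S1pr5) to 0.34 (S1pr3, a receptor that holds B cells in the marginal zone). S1pr3 read 4.36, 4.16 and 3.42 FPKM in Ab_60mer and 4.84, 5.86 and 5.18 FPKM in BRFc_60mer, without overlap (limma adjusted p = 0.719).

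Genes of antigen presentation on MHC class II (14 tested) had a median of 0.078, from -0.34 (H2-Ea-ps) to 0.23 (H2-Ab1). H2-Ab1, a class II beta chain, read 1260, 1460 and 1540 FPKM in Ab_60mer and 1490, 1660 and 1830 FPKM in BRFc_60mer, which overlapped. Ciita, the transactivator of these genes, read 40.0, 41.5 and 40.5 FPKM against 44.9, 49.6 and 47.3 FPKM, which did not (log2 difference 0.21 ± 0.0565, limma adjusted p = 0.507). Type I interferon response genes (27 tested) had a median of -0.068, from -0.32 (Ifit1) to 0.05 (Isg20). Marginal zone genes (19 tested) had a median of 0.030 and follicular genes (13 tested) of 0.028. Among the transcription factors of B cell identity, 18 tested with a median of -0.014, the highest was Bcl6, the germinal centre repressor, at 31.5, 35.1 and 31.3 FPKM in Ab_60mer and 37.6, 38.8 and 37.0 FPKM in BRFc_60mer. The groups did not overlap (log2 difference 0.21 ± 0.0499, limma adjusted p = 0.265), and Bcl6 rose by 0.40 in BRFc_60mer against BRFc (limma adjusted p = 0.000201), with 0.13 in Ab_60mer against Ab (0.0907). Oxidative phosphorylation (26 tested), MYC and ribosome biogenesis (24), sterol synthesis (28) and the integrated stress response (22) had medians of -0.021, -0.041, 0.060 and -0.054. The widest range was that of the mitochondrial genome (12 tested), from -0.52 (mt-Atp8) to 0.30 (mt-Co2).

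**Figure D4:**
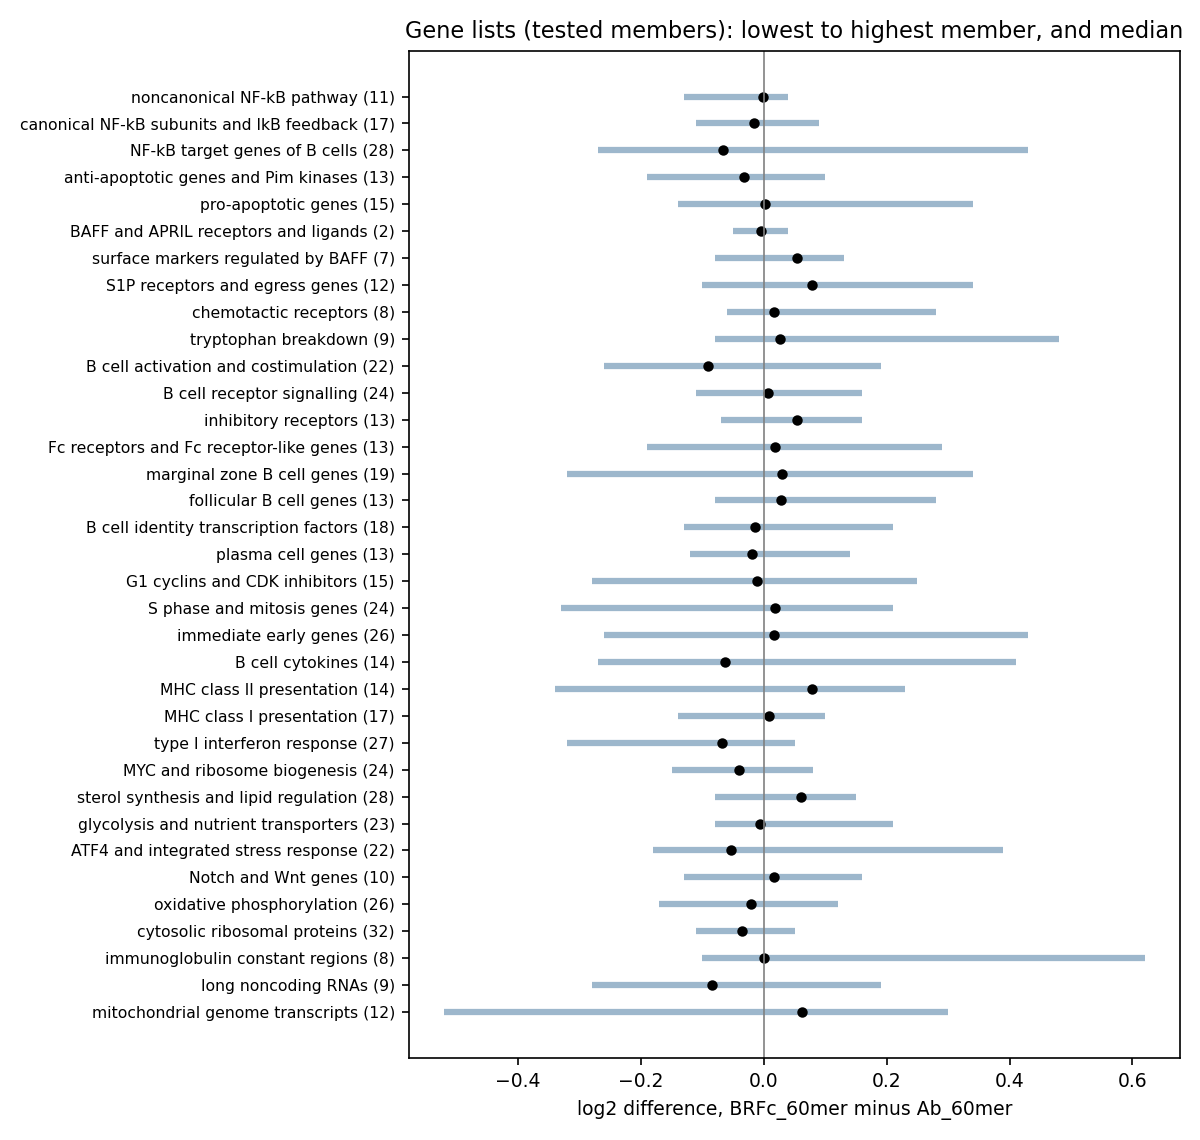
Range (bars) and median (points) of the log2 difference between BRFc_60mer and Ab_60mer on log2(FPKM + 1) (horizontal axis) over the tested members of 35 gene lists, with the number of members in parentheses. Medians lie between -0.091 and 0.079, and the member farthest from 0 is Ighg1 at 0.62 in the list of immunoglobulin constant regions.

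Among markers of other cells that a splenic B cell preparation can hold, 0 of the genes tested passed. For some types few were tested: 0 of 9 erythroid, 1 of 6 mast cell and basophil, and 1 of 6 connective tissue markers. The test covered 2 of 8 endothelial, 5 of 11 dendritic cell and all 12 NK cell markers. The 12 NK cell markers summed to 156 to 160 FPKM in Ab_60mer and 168 to 170 in BRFc_60mer, without overlap. In the other libraries they summed to 163 to 195 FPKM. Their log2 differences ran from -0.19 (Klra8) to 0.20 (Klra4). At an unadjusted limma p under 0.05, 2 of the 12 were higher, beside 2.52% of all genes, and 0 were lower. Sums of FPKM follow the most abundant members of a list. Endothelial markers (8 genes) summed to 57.9 to 60.8 and 61.2 to 62.4 FPKM, and platelet markers (7 genes) to 33.1 to 35.1 and 35.3 to 39.1 FPKM, also without overlap. In the other libraries these sums ran from 60.2 to 75.1 FPKM and from 35.7 to 45.5 FPKM. Mast cell and basophil markers (6 genes) were low, at 2.53 to 3.33 and 3.35 to 3.45 FPKM, narrowly without overlap. The sums of T cell (17.7 to 20.5 and 19.3 to 22.2 FPKM), dendritic cell (48.6 to 50 and 44.4 to 48.8 FPKM), neutrophil (25.5 to 37 and 28.9 to 31.5 FPKM, with Ly6g at 0 in all 6 libraries) and erythroid markers (3.51 to 4.12 and 3.38 to 4.82 FPKM) overlapped. Whether these sums bear on the 3 called genes was not tested.

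The same contrast of reagents was computed with the other forms of stimulation. Without BAFF, BRFc against Ab gave 0 genes with limma and 0 with voom, and 688 (5.91%) at an unadjusted p under 0.05. With BAFF 3mer, BRFc_3mer against Ab_3mer gave 0 and 0, and 452 (3.88%) at an unadjusted p under 0.05. The difference between the contrasts was tested directly. Between BAFF 60mer and BAFF 3mer, B3gnt7 (0.58 ± 0.0886, limma adjusted p = 0.0298) and Spp1 (1.55 ± 0.196, 0.00615) differed, which is 0.0172% of the genes tested, beside 488 genes (4.19%) at an unadjusted p under 0.05. The call of Spp1 held without any of the 12 libraries, whereas that of B3gnt7 was lost without any of 9 of them (adjusted p from 0.0516 to 0.155). It held without Ab_3mer library 3, BRFc_3mer library 2 or BRFc_60mer library 3. For Spp1 the contrast had opposite signs, with -0.62 under BAFF 3mer that did not pass by itself (limma adjusted p = 0.998). Pkib differed by 0.45, which did not pass (limma adjusted p = 0.849).

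How precisely each difference was estimated follows from the limma intervals on log2(FPKM + 1). These intervals are not adjusted for the number of genes tested, so they do not give the smallest difference that would be called. Vim, at 0.33, had an unadjusted limma p of 4.72e-05 and still missed the threshold (adjusted p = 0.115). Folds in this paragraph are folds of FPKM + 1, and for genes of a few FPKM they do not bound the fold in FPKM. The 95% interval of a gene reached 0.164 to either side of its estimate on the log2 scale (median over genes). The interval lay wholly inside a 1.25-fold change for 8554 genes (73.5%), inside 1.5-fold for 10878 (93.4%) and inside 2-fold for 11498 (98.7%). On simulated data with the spread of these genes, the test of BRFc_60mer against Ab_60mer recovered 54.1% of 1.25-fold changes, 83.8% of 1.5-fold changes and 97.7% of 2-fold changes (200 of 11646 genes changed per set). The recovery depends on that number, since the adjustment is stricter where fewer genes change. With fewer changed genes it would be lower, and this was not simulated. Taken alone, each interval holds with 95% confidence for its own gene and not for all genes together.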

How the data were processed

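Total RNA from 18 samples of splenic B cells was extracted with a DNase step and sequenced by a company, which also computed the expression values, per the labels' protocols. The values the authors deposited are FPKM, fragments scaled by gene length and library size, in 1 column per library, and 0 columns were left out. The aligner, counter, genome build and any further scaling are not given in the sources used here. Of 35275 Ensembl IDs, 34490 matched GENCODE M21 models (GRCm38), which gave symbols and positions.

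Each column was matched to its library by title and to its group by the treatment label. Replicates are numbered by order of deposition. Library totals were recovered from the FPKM steps of single-transcript genes, where 88.9% of values below 500 fragments came out whole to within 0.1. In the 6 libraries compared, 1 fragment per kilobase corresponds to between 0.0466 and 0.0818 FPKM, so precision falls for genes of a few FPKM.

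Genes averaging 1 FPKM or more across 18 libraries were tested on log2(FPKM + 1), pseudocount 1, with limma 3.58.1 in R 4.3.3 (trend in the variance, 6 group means in 1 fit, 12 residual degrees of freedom, Benjamini-Hochberg adjustment over 11646 genes, threshold 0.05). An exact permutation test of 3 against 3 libraries could not go below p = 0.1 and was not used. Interactions are differences between differences in the same fit. Differences carry the standard error of that fit and means the SD of 3 libraries.

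The members, the gene lists and the panel were chosen with earlier results of these data known. Genes were named by rule: the largest differences past the threshold without overlap between libraries and with a mean of at least 2 FPKM in the higher group, leaving out provisional names (such as Gm with a number), or, under the same conditions, the smallest p-values of a direction with fewer than 5 such genes, the panel of 25 genes, and members of lists. The extreme members of lists, Il4i1, Gadd45g, Casp6, Bcl6, S1pr3, Ciita, H2-Ab1, Ier3, Gm17622, Snx8 and others named in the closing observations were chosen after their values were seen.

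Alternatives were a pseudocount of 0.1, an expression filter at 5 FPKM or none, rescaling by the median of ratios, limma's array weights, fitting the 2 groups by themselves, a block for deposition position, and omission of each library in turn. Voom on recovered fragments and the library total as a term were chosen after seeing the data. The test was tested on simulated data. Of its calls, 4.5% were false in the main comparison and 5.5% in the interaction with no BAFF. In the interaction with no BAFF it recovered 26.1% of 1.25-fold, 66.5% of 1.5-fold and 89.9% of 2-fold changes in FPKM + 1. These shares also rest on 200 changed genes per set. Plots used Python 3.11.15 and matplotlib 3.10.9.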

Additional observations from a re-analysis of the deposited data

Results flagged for a closer look

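For 2 genes the limma interaction over 11646 genes called the difference between mBaffR-mFc and the control antibody unlike between forms of stimulation. For B3gnt7 the difference was larger with BAFF 60mer than without BAFF by 0.60 on the log2 scale (adjusted p = 0.0468) and larger than with BAFF 3mer by 0.58 (adjusted p = 0.0298). The call against no BAFF passed in 5 of 19 alternatives and was lost without any 1 of its 12 libraries. The call against BAFF 3mer passed in 10 of 19. All 3 BRFc_60mer libraries lay above all 3 Ab_60mer libraries, whereas the means of BRFc and Ab, 16.4 ± 0.155 and 16.5 ± 0.747 FPKM (SD, n = 3), and those of BRFc_3mer and Ab_3mer, 15.6 ± 0.864 and 15.6 ± 1.29 FPKM, lay together. For Spp1 the difference was larger with BAFF 60mer than with BAFF 3mer by 1.55 (adjusted p = 0.00615). This value uses the Ab_3mer libraries, of which those with connective tissue transcripts read 4.04 and 3.32 FPKM and the other 2.30 FPKM, and the part of those transcripts was not tested.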

How the results depend on the processing

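Of the 3 called genes, B3gnt7 passed in 14 of 15 alternatives (limma adjusted p from 0.000302 to 0.154), failing only in the fit of 2 groups. Pkib passed in 11 of 15 (0.000968 to 0.438). It failed in that fit and without Ab_60mer library 2 or 3 or BRFc_60mer library 2 (0.0529, 0.0548 and 0.0893). Spp1 passed in 5 of 14 (0.0158 to 0.164). None of the 3 turned direction. The count of 3 called genes became 8 with array weights and 0 in the fit of only the 2 groups. Leaving out 1 library gave 1 to 6, with 6 (Gadd45g, Il4i1 and Pxdc1 among them) without BRFc_60mer library 1. The replicate block gave 4, adding Snx8, and voom gave 2. The count stayed at 3 without a filter and with the library total as a term, but with Hcrtr1 and Gm17622 in place of Spp1. Deviations of Ab_60mer and BRFc_60mer libraries at the same position correlated by 0.26, 0.09 and 0.39, and those at unlike positions by -0.32 to 0.09. Each deviation is from the mean of its own group, so these correlations are tied to each other. Those at unlike positions are therefore not an independent baseline. At an unadjusted p under 0.05 the block gave 810 genes in the main comparison, beside 540 without it. The labels do not say whether libraries at a position share an animal, culture or batch, and the main test treats them as unpaired. For BRFc_3mer against Ab_3mer the count of 0 became 1 without a filter (Gm28900) and 0 to 1 on leaving out a library; for BRFc against Ab it was 0 to 1. The interaction of BAFF 60mer with no BAFF fell from 1 to 0 without a filter, with median-of-ratios rescaling, and on leaving out each library in turn (0 to 0). That with BAFF 3mer gave 1 at a minimum mean of 5 FPKM and 1 to 4 on leaving out a library. BRFc_60mer against BRFc went from 563 called genes to 1386 with array weights and 1105 with the replicate block, and to 242 to 731 on leaving out a library; Ab_60mer against Ab, 1628, went to 756 to 1668, and to 2428 with the block. Rescaling factors lay between 0.982 and 1.02. The cause of these shifts was not tested. Leaving out a library also leaves fewer libraries in the fit, and the counts then moved in both directions. At these depths 1 fragment per kilobase is worth up to 0.0818 FPKM, which limits genes near 1 FPKM.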

Other observations

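Some transcripts differed by more than B3gnt7 without passing, and are given as values. Gm17622, a predicted gene, read 7.27, 17.7 and 11.5 FPKM in Ab_60mer and 1.38, 2.80 and 3.11 FPKM in BRFc_60mer, with no overlap. The log2 difference was -1.90 ± 0.35 (SE; limma adjusted p = 0.115), and with the library total as a term in the fit it passed. Ighg1, the constant region of IgG1, read 4.87, 5.37 and 5.96 FPKM in Ab_60mer and 9.71, 9 and 7.85 FPKM in BRFc_60mer, also without overlap (log2 difference 0.62 ± 0.274, limma adjusted p = 0.993). The 9 immunoglobulin constant regions found, of 12 listed, summed to 7740 to 7980 FPKM in Ab_60mer and 7230 to 7590 FPKM in BRFc_60mer. The order of this sum is opposite to that of Ighg1, but a sum follows its most abundant members. The 8 tested had a median log2 difference of 0.000, from -0.10 (Igkc) to 0.62 (Ighg1). Immunoglobulin genes share sequence, and the counting could split their reads.

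A few further genes, picked after their values were seen, did not overlap between the groups (as 8.41% of all genes) and had an unadjusted p under 0.05 (as 4.64%) without passing after adjustment. Snx8, a sorting nexin of the endosome, read 37.5, 37.3 and 41.6 FPKM in Ab_60mer and 47.0, 46.7 and 52.4 FPKM in BRFc_60mer (log2 difference 0.32 ± 0.0755, limma adjusted p = 0.265). Gpr183, the oxysterol receptor that guides B cells within the follicle, read 55.6, 55.7 and 46.8 FPKM against 65.7, 66.1 and 60.1 FPKM (0.28 ± 0.0862, adjusted p = 0.773). Dapp1, an adaptor downstream of the B cell receptor, read 43.0, 41.6 and 40.9 FPKM against 48.1, 49.6 and 43.5 FPKM (0.16 ± 0.0429, adjusted p = 0.443). In each of these the BRFc_60mer libraries were the higher ones. Mir155hg, the host transcript of miR-155, went the other way, with 30.1, 28.3 and 27.0 FPKM in Ab_60mer and 24.4, 22.8 and 22.8 FPKM in BRFc_60mer (-0.28 ± 0.105, limma adjusted p = 0.927).

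Klf4, a transcription factor of quiescent lymphocytes, fell by 0.53 in Ab_60mer against Ab (limma adjusted p = 0.000749) and differed by -0.09 in BRFc_60mer against BRFc (0.621). Its libraries read 3.84, 2.93 and 3.28 FPKM in Ab_60mer and 4.40, 4.16 and 4.03 FPKM in BRFc_60mer (log2 difference 0.26 ± 0.0838, limma adjusted p = 0.791). The response of Cdkn2d, an inhibitor of the G1 kinases, was a fall of 0.79 in Ab_60mer against Ab (limma adjusted p = 0.00412) and a difference of -0.36 in BRFc_60mer against BRFc (0.222). For neither gene is a difference between the responses shown by these values.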
